A study of Mus musculus with 48 samples.

Results

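The glucocorticoid target genes described here are 10 genes chosen by name from the 54532 genes of the count table: the glucocorticoid receptor Nr3c1, the steroid-activating enzyme Hsd11b1, and the target genes Fkbp5, Tsc22d3, Sgk1, Zbtb16, Klf9, Mt1, Mt2 and Lcn2. The rule uses gene names and no measured value, but the names were picked with earlier results of these data known. Of the 10, 9 passed the filter on low counts, as did 19977 genes in all, and Mt2 did not. They were measured by bulk RNA-seq of subcutaneous white adipose tissue (sWAT, the inguinal depot) from C57BL/6 mice 8 months of age (male C57BL/6J in the study's text), fed either ad libitum (AL) or in a pair of nightly meals (twice-a-night, TAN), with free water. Each diet had 4 libraries at each of 6 times of day (8 AM, 12 PM, 4 PM, 8 PM, 12 AM and 4 AM), 48 libraries in all, and all the mice shared strain and age. The labels name no engineered allele.

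Glucocorticoids from the adrenal gland enter the cell, bind the receptor Nr3c1 and move it from its chaperones to DNA, where it raises or lowers transcription of its target genes. In mice, a nocturnal species, the circulating hormone is highest around the onset of the dark and active phase, and food schedules can shift it. The study measured serum corticosterone over the day in both diets. It reports that the insulin and leptin oscillations of TAN mice were independent of changes in corticosterone. In fat the enzyme Hsd11b1 makes active hormone from its inactive 11-keto form inside the cell, and glucocorticoids act there on lipid storage, lipolysis and adipocyte differentiation.

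Total counts were 15636378 to 29913310 per AL library and 15685080 to 25440243 per TAN library. The labels number the libraries within each group without saying that they are separate animals, so the p-values measure the spread between these libraries. The time labels used are those of the samples, and a supplementary table of the study lists these libraries with AM and PM exchanged. By the sample labels, the clock genes in AL mice had their highest group means at 4 PM for Dbp (102 ± 19.9 CPM, SD, n = 4) and at 8 AM for Arntl (32.3 ± 9.59 CPM). The series text names the material a stromal vascular fraction, a preparation from which adipocytes are removed, yet the summed level of 6 adipocyte markers (Adipoq, Plin1, Lep, Cidec, Fabp4 and Lipe) was 4272 to 44480 CPM and none of the 6 was at 0 in any library. Libraries differed in the RNA of their cell type markers. At 4 PM the adipocyte marker sum was 22032 to 44480 CPM in TAN and 9337 to 14973 CPM in AL, and the sum of 10 lymphocyte markers was 169 to 677 CPM in TAN and 1819 to 3643 CPM in AL, without overlap in either. At 8 PM, TAN replicates 1 and 2 stood apart with adipocyte marker sums of 6927 and 4272 CPM, against 27784 and 36932 CPM in replicates 3 and 4. The lymphocyte marker sum was 205 CPM in TAN replicate 4 and 1648 to 3262 CPM in replicates 1 to 3. In AL it was 1060 to 2801 CPM. The sum of 4 endothelium markers was 134 to 252 CPM in TAN and 334 to 478 CPM in AL. Dissection stress genes (8, among them Fos and Junb) summed to 187 and 245 CPM in TAN replicates 1 and 2. They summed to 58.8 and 42.1 CPM in replicates 3 and 4, and to 45.5 to 86.4 CPM in AL. In bulk tissue fewer cells of a type and less RNA per cell cannot be told apart. Epithelial markers summed to at most 12.4 CPM.

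Levels are given in counts scaled to a common library size with TMM factors (CPM), and differences as log2 fold changes (TAN minus AL) with their standard errors (SE) from 1 model over all 48 libraries. A gene was called with an adjusted p under 0.05 (quasi-likelihood test of edgeR, adjusted by Benjamini-Hochberg over all 19977 genes). Per unit of length, in the authors' mean FPKM, the order of the median over the 12 groups was Hsd11b1 (70.8), Mt1 (70.1), Nr3c1 (39.4), Tsc22d3 (37.8), Klf9 (18.1), Sgk1 (15.9), Zbtb16 (4.42), Fkbp5 (3.97), Lcn2 (0.636) and Mt2 (0.0557). The group means of Hsd11b1 ran from 37.0 to 245.6 FPKM and those of Mt1 from 45.6 to 145.4 FPKM, so that the order of these 2 genes was not fixed. The same holds for Zbtb16 (2.34 to 8.51 FPKM) and Fkbp5 (3.13 to 8.12 FPKM).

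Promoter sequence was taken from RefSeq (GRCm38.p6), and the 250 bases before each of 15 start sites of 8 members (all but Nr3c1 and Zbtb16) were searched on both strands. The palindromic glucocorticoid response element, AGAACA and its reverse complement TGTTCT with any 3 bases between them, stood before 1 of the 6 Sgk1 start sites and before no other start searched, and 0.00913% of 32851 promoter windows of that length held it. The half-site AGAACA, which is contained in the palindrome, occurred in 16.1% of windows, and among the members before 1 Tsc22d3 start and 3 Sgk1 starts. The metal response element core TGCNCNC occurred 5 times before Mt2 and once before Mt1, Hsd11b1, Fkbp5, 1 Tsc22d3 start and 2 Sgk1 starts, and at least once in 44.4% of windows. It occurred at least 4 times in 1.28% of windows and at least 6 times in 0.0944%. A match is a description of letters and not a binding site, and a window without a match says nothing of sites farther away. Bases after each start were not searched, so that the number of matches depends on the start used. The Mt1 window ends at 94179088, just past 94179082, where the counted span of the gene begins. The only windows of Hsd11b1 (chr1:193242361-193242610), Fkbp5 (chr17:28486150-28486399) and Lcn2 (chr2:32387740-32387989) lie inside the counted spans. On the minus strand these spans begin at 193264075, 28517527 and 32388252. Some windows of Tsc22d3 and Sgk1 also lie inside the counted spans. Sgk1 is shown because it holds the whole palindrome, and the metallothionein neighbours because Mt1 was among the most changed members while Mt2 was barely detected. Capitals mark the response element in Sgk1 (chr10:21993640-21993889, plus strand) and the metal response element cores in Mt1 (chr8:94178839-94179088, plus strand) and Mt2 (chr8:94172368-94172617, plus strand), each written 5′ to 3′ up to the base before the start.
Sgk1: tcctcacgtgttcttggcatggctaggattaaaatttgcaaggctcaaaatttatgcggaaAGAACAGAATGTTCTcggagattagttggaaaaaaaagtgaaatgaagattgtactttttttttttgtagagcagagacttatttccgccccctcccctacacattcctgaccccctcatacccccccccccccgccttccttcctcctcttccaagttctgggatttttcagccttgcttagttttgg
Mt1: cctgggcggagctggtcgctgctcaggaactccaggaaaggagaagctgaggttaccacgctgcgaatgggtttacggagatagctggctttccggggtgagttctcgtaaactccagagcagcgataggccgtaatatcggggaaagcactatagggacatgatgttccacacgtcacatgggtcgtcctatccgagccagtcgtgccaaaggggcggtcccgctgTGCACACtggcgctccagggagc
Mt2: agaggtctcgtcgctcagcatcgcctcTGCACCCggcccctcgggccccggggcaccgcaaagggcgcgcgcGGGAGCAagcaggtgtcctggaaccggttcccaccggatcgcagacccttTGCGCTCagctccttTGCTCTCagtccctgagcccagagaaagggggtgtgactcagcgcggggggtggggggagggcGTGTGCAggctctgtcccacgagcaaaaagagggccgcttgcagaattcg

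The first question was whether TAN feeding changed these genes at a given time of day. Of the 54 combinations of 9 genes and 6 times, 3 passed: Hsd11b1 and Mt1 were higher in TAN mice at 4 PM, and Nr3c1 was lower at 8 PM. The share of all genes called was 15.3% at 4 PM, where 2 of 9 members were called, and 11.7% at 8 PM, where 1 of 9 was. It was 0.015% at 8 AM, 0.0901% at 12 PM, 0.15% at 12 AM and 0% at 4 AM, where no member was called. At an unadjusted p under 0.05, 1 member passed at 8 AM (all genes, 6.58%), 5 at 12 PM (7.37%), 2 at 4 PM (33.2%), 2 at 8 PM (28%), 3 at 12 AM (17.5%) and 2 at 4 AM (2.64%). At 8 AM, 12 PM, 12 AM and 4 AM, DESeq2 called Mt1 at 8 AM and Hsd11b1 at 12 AM. Of all 19977 genes it called 47 at 8 AM and 568 at 12 AM. The median log2 fold change of the 9 members was -0.23 at 8 AM, -0.47 at 12 PM, 0.37 at 4 PM, 0.06 at 8 PM, 0.12 at 12 AM and 0.33 at 4 AM, where that of all genes lay between -0.14 and 0.04. The plot of fold changes by gene and time shows all 54 values.

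**Figure D1:**
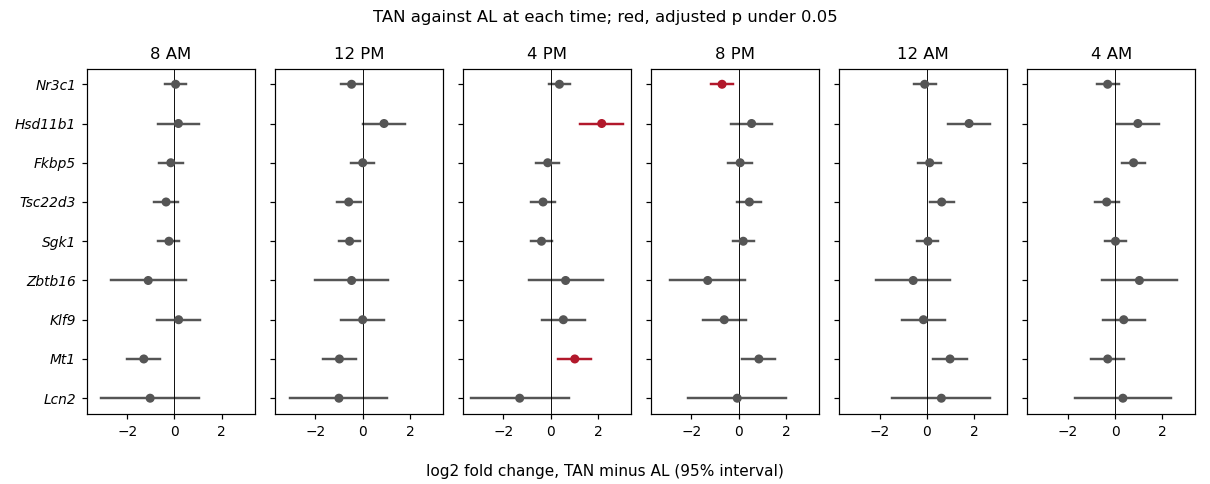
Log2 fold change of each of 9 genes (rows), TAN minus AL, at the 6 times of day (panels), with the 95% interval of the model; 4 libraries per diet and time. The 3 called differences are in red: Hsd11b1 (2.16) and Mt1 (1.02) at 4 PM and Nr3c1 (-0.71) at 8 PM.

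Among the genes that set access to the hormone, Hsd11b1, the 11β-hydroxysteroid dehydrogenase that regenerates active glucocorticoid, had the largest called difference. At 4 PM its level was 185, 151, 150 and 152 CPM in the AL libraries and 897, 556, 642 and 751 CPM in the TAN libraries. Every TAN library was at least 556 CPM and every AL library at most 185 CPM, and 30.6% of all genes likewise had no overlap at that time. The log2 fold change was 2.16 (SE 0.45, adjusted p = 0.00705). At 12 AM the TAN libraries were at 521, 1752, 960 and 1020 CPM and the AL libraries at 363, 337, 163 and 374 CPM, again without overlap (all genes, 9.13%), with a log2 fold change of 1.78 (SE 0.44) that was not called (adjusted p = 0.0815). The cell markers differed there too. The lymphocyte marker sum at 12 AM was 2030, 135, 637 and 103 CPM in the TAN libraries against 1851 to 2121 CPM in AL, and the adipocyte marker sum 18546 to 35073 CPM in TAN against 13471 to 19252 CPM in AL. With the adipocyte marker mean as a covariate the 12 AM difference was 1.38 and called (adjusted p = 0.0228), as were 70 of all 19977 genes. With the lymphocyte marker mean it was 1.11 and not called (adjusted p = 0.251), where 9 of all genes were. Without a covariate it passed without TAN 12 AM replicate 1 (adjusted p = 0.0195), AL 8 AM replicate 2 (0.0483), AL 4 AM replicate 1 (0.0497), or TAN 8 PM replicate 1 (0.0469), 2 (0.0446) or 4 (0.0439). At 4 AM the TAN libraries (550, 338, 543 and 565 CPM) were also all above the AL libraries (143, 313, 257 and 309 CPM; all genes, 3.09%), with a log2 fold change of 0.97 (SE 0.44, adjusted p = 1). Over the mean of the 6 times Hsd11b1 was higher in TAN mice by 1.09 on the log2 scale (SE 0.18, adjusted p = 1.66e-04), the only member of 9 called there, where 5.42% of all genes were; at an unadjusted p Nr3c1 (-0.19, SE 0.09) passed as well, with 21.5% of all genes. At 8 AM the TAN libraries were at 329, 332, 295 and 319 CPM, within the AL range of 145 to 472 CPM, and the log2 difference was 0.17 (SE 0.43).

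Hsd11b1 moved with the adipocyte markers. Over the 48 libraries its deviations from the group means had a Pearson r of 0.74 with those of the adipocyte marker mean and of -0.57 with those of the lymphocyte marker mean. With the adipocyte marker mean as a covariate, the 4 PM difference was 1.35 (adjusted p = 0.0472) and that over the day 0.96 (adjusted p = 7.80e-07). With the lymphocyte marker mean as a covariate, the 4 PM difference was 1.34 and not called (adjusted p = 0.192), while that over the day was 0.96 (adjusted p = 4.49e-05). Of all 19977 genes, 67 were called at 4 PM with the adipocyte covariate and 0 with the lymphocyte covariate, against 3057 without either. Over the day 1543 and 937 were called, against 1082. The marker sums did not overlap between the diets at 4 PM, so that these fits cannot tell diet and markers apart there. The whole span of Hsd11b1 (chr1:193221634-193264075, minus strand) lies inside Lamb3 on the other strand, which had 4350 counts over all libraries against 400720 for Hsd11b1, and the strandedness of the counting is not stated.

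Nr3c1, the receptor itself, varied within a narrower range: its group means were 282 to 410 CPM in AL mice and 187 to 373 CPM in TAN mice. At 8 PM the libraries were at 239, 291, 279 and 412 CPM in AL mice and at 135, 111, 197 and 304 CPM in TAN mice. The 2 lowest values were those of TAN replicates 1 and 2, the libraries that stood apart in their adipocyte markers, and the groups overlapped. The log2 fold change was -0.71 (SE 0.23, adjusted p = 0.0385), and without these 2 libraries it was -0.29 (adjusted p = 0.437). In a fit of the 8 PM libraries alone it was -0.68 (adjusted p = 0.374), where 55 of 16186 genes were called. The call was also lost without TAN 8 PM replicate 1 (adjusted p = 0.131), 2 (0.149) or 3 (0.0600), or AL 8 PM replicate 2 (0.0680), 3 (0.0677) or 4 (0.144). Nr3c1 deviated with the adipocyte markers within groups (r = 0.74) and against the lymphocyte markers (r = -0.64). At the 5 other times its log2 differences lay between -0.47 at 12 PM and 0.37 at 4 PM and none was called.

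**Figure D2:**
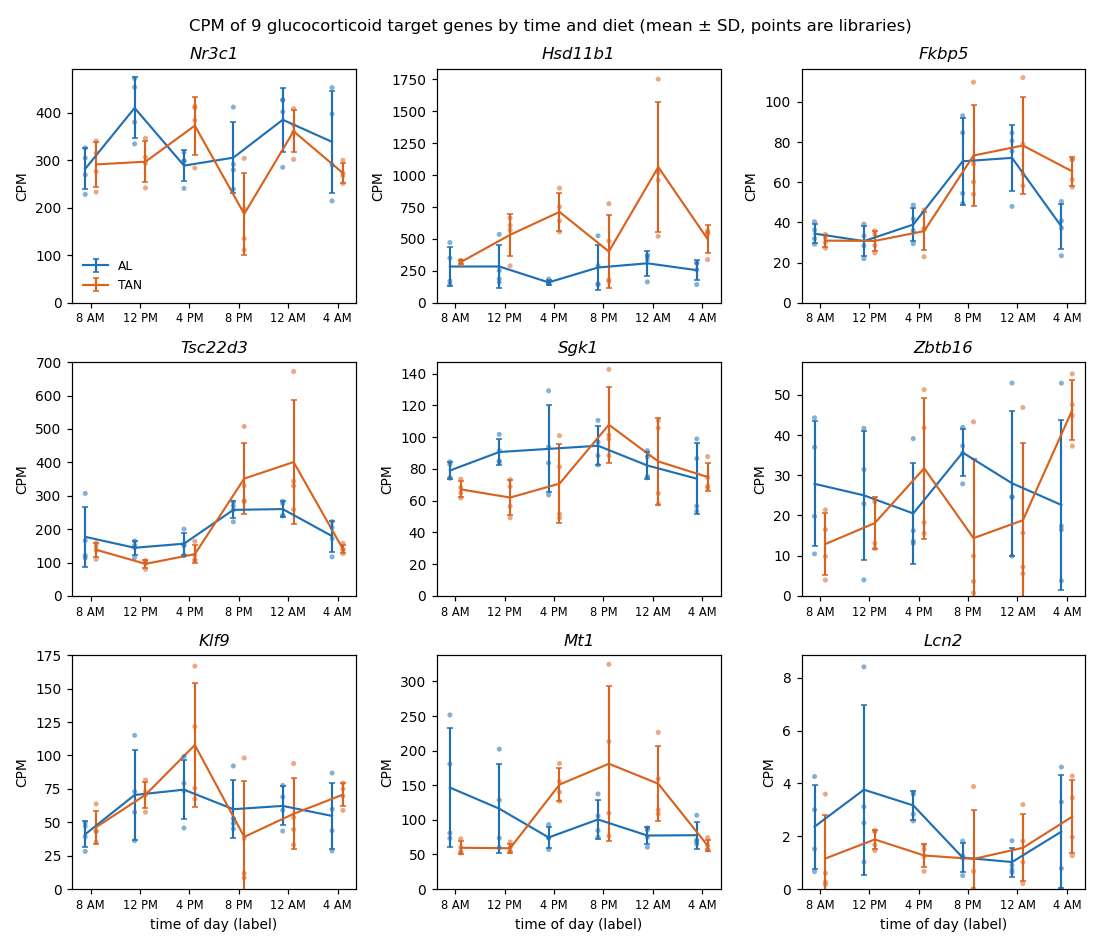
CPM of 9 genes (panels, each with its own scale from 0) against time of day in AL (blue) and TAN (orange) mice. Points are the 4 libraries of a group, lines join group means and bars are the SD, cut at 0. Fkbp5 and Tsc22d3 are higher at 8 PM and 12 AM in both diets, and at 4 PM every TAN library lies above every AL library for Hsd11b1 and Mt1.

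The second question was whether these genes followed a daily course. In AL mice 1 member of 9, Fkbp5, varied over the 6 times (adjusted p = 0.00553), where 0.0551% of all genes did, which is 11 genes. Fkbp5 was also the only member with a 24-h cosine in AL mice (adjusted p = 0.00201), where 0.0801% of all genes, 16 in number, had one, and its p was the 6th smallest of 19977. In TAN mice 6 members varied over the 6 times (Hsd11b1, Nr3c1, Fkbp5, Tsc22d3, Sgk1 and Mt1), where 23% of all genes did. Hsd11b1 did not pass without TAN 12 AM replicate 2 (adjusted p = 0.119), nor Nr3c1 without TAN 8 PM replicate 1 (0.0645) or 2 (0.0634). A 24-h cosine was called there for Tsc22d3, Fkbp5, Mt1 and Sgk1, 4 of 9 members, where 19.8% of all genes had one. At an unadjusted p under 0.05, 3 members varied over the times in AL mice (all genes, 6.67%) and 7 in TAN mice (42.2%), and 2 had a cosine in AL mice (11.4%) and 4 in TAN mice (35.1%). At that limit the cosines of the diets differed for 3 members (33.6%) and the TAN effect differed between times for 4 (30.2%).

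Fkbp5, a co-chaperone that binds the receptor complex and lowers its affinity for the hormone, is itself induced by the receptor. In AL mice its level was 84.6, 93.1, 54.4 and 49.5 CPM at 8 PM and 80.6, 47.9, 75.4 and 84.5 CPM at 12 AM. It was 28.3, 21.9, 39.2 and 33.3 CPM at 12 PM. The group mean of Fkbp5 in AL mice was highest at 12 AM and lowest at 12 PM, so that a gap between these times is partly built in. The cosine in AL mice peaked at hour 22.1 (SE 0.59) with an amplitude of 0.65 on the log2 scale (SE 0.10), a 2.48-fold difference between peak and trough. In TAN mice the peak was at hour 23.5 (SE 0.48) and the amplitude 0.81 (SE 0.10; adjusted p = 1.07e-05), a 3.07-fold difference. The cosines of the diets did not pass the test of their difference. At 4 AM the TAN libraries were at 57.5, 71.6, 71.1 and 61.3 CPM and the AL libraries at 37.2, 50.4, 23.4 and 40.8 CPM. The groups did not overlap there (all genes, 3.09%), with a log2 fold change of 0.78 (SE 0.25) that was not called (adjusted p = 1). At the 5 other times the log2 difference between the diets was -0.16 to 0.12. Within groups, the deviations of Fkbp5 had r = -0.0018 with the adipocyte marker mean and r = 0.0030 with the lymphocyte marker mean. The AL cosine held in all 48 fits that left out 1 library (adjusted p 8.45e-04 to 0.0141).

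Tsc22d3 encodes GILZ, a leucine zipper protein that mediates anti-inflammatory effects of the hormone. Its TAN libraries were at 106, 102, 79.4 and 96.5 CPM at 12 PM and at 259, 330, 343 and 672 CPM at 12 AM. Its AL libraries were at 152, 145, 165 and 115 CPM at 12 PM and at 283, 241, 277 and 239 CPM at 12 AM. In both diets its group mean was highest at 12 AM and lowest at 12 PM. The mean at 12 AM was 4.18 times that at 12 PM in TAN mice and 1.80 times in AL mice. The cosine in TAN mice peaked at hour 22.7 (SE 0.40) with an amplitude of 0.9995 (SE 0.11; adjusted p = 1.44e-07), and its p was the 7th smallest of all genes. In AL mice the cosine peaked at hour 23.1 (SE 0.94) with an amplitude of 0.42 (SE 0.10) and was not called (adjusted p = 0.200). Without AL 8 AM replicate 4, which had 307 CPM against 114 to 166 CPM in its group, it was (adjusted p = 0.0368). The cosines of the diets differed for Tsc22d3 (adjusted p = 0.0128), 1 of 2 members for which they did, where 20.2% of all genes did. With the lymphocyte marker covariate that difference was not called (adjusted p = 0.0796), and with the adipocyte marker covariate it was (adjusted p = 0.0111). The TAN effect on Tsc22d3 did not pass the test of a difference between times (adjusted p = 0.0552), but did without AL 8 AM replicate 2, 3 or 4, AL 12 PM replicate 4, AL 4 PM replicate 2, AL 4 AM replicate 1 or 3, TAN 4 PM replicate 3, TAN 8 PM replicate 1 or 2, or TAN 12 AM replicate 1 (adjusted p 0.0183 to 0.0494). At single times no difference between the diets was called for Tsc22d3; the TAN libraries lay below all AL libraries at 12 PM (log2 fold change -0.59, SE 0.25; all genes without overlap, 4.84%) and above them at 8 PM (0.45, SE 0.25; all genes without overlap, 16.1%).

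**Figure D3:**
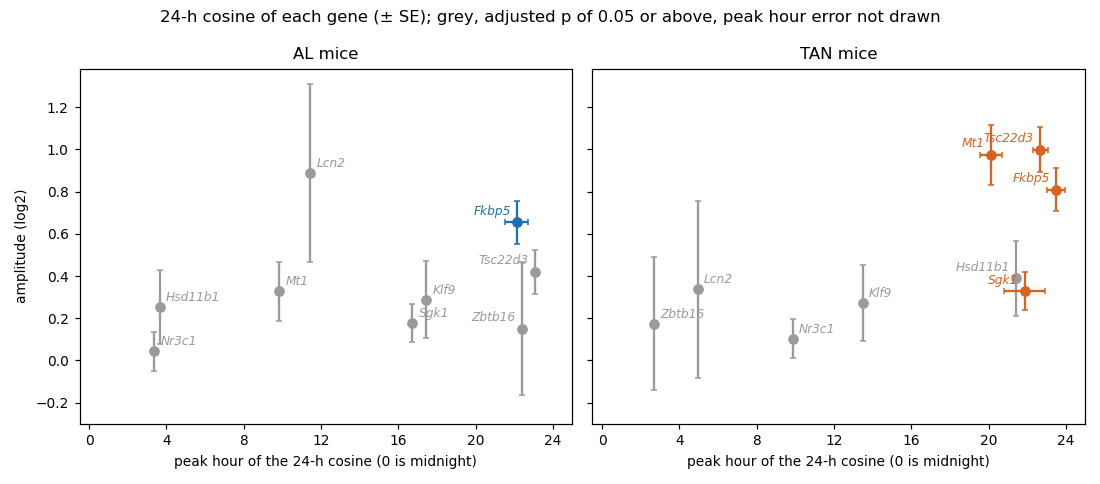
Amplitude (log2, y axis) against peak hour (x axis, 0 is midnight) of the 24-h cosine of each gene in AL (left) and TAN (right) mice; bars are SE, and genes in grey were not called. Fkbp5 peaks at hour 22.1 in AL and 23.5 in TAN, and Tsc22d3 (22.7), Mt1 (20.1) and Sgk1 (21.9) are called in TAN mice.

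Sgk1, a kinase that regulates ion channels and transporters, had a smaller daily course. In TAN mice its level was 98.8, 88.3, 101 and 143 CPM at 8 PM and 73.3, 56.5, 49.2 and 68.8 CPM at 12 PM. These were the times of its highest and lowest group mean. Its cosine in TAN mice peaked at hour 21.9 (SE 1.05) with an amplitude of 0.33 (SE 0.09; adjusted p = 0.0243). This call was lost without TAN 8 PM replicate 4 (adjusted p = 0.0529) or TAN 12 AM replicate 2 (0.0502), and its variation over the 6 times (adjusted p = 0.0444) was lost in 13 of the 48 fits that left out 1 library, those without AL 8 PM replicate 4, TAN 8 AM replicate 2, 3 or 4, TAN 12 PM replicate 2 or 3, TAN 8 PM replicate 1, 3 or 4, TAN 12 AM replicate 2, or TAN 4 AM replicate 2, 3 or 4 (adjusted p 0.0508 to 0.129). In AL mice the amplitude was 0.18 (SE 0.09; adjusted p = 0.605). At 12 PM the AL libraries (85.0, 102, 91.5 and 84.3 CPM) were all above the TAN libraries, and at 8 AM the AL range of 74.2 to 84.5 CPM lay above the TAN range of 61.6 to 73.6 CPM. The log2 differences there, -0.55 (SE 0.22) and -0.23 (SE 0.22), were not called (adjusted p = 0.594 and 0.900), and 4.84% of all genes at 12 PM and 3.07% at 8 AM had no overlap.

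Mt1, a metallothionein that binds zinc and copper and is induced by glucocorticoids and by metals, had the smallest adjusted p of the 9 members for a daily course that differed between the diets. In AL mice it was at 181, 80.9, 73.2 and 252 CPM at 8 AM and at 93.0, 73.9, 57.2 and 73.9 CPM at 4 PM. In TAN mice it was at 60.0, 72.6, 52.1 and 54.0 CPM at 8 AM and at 155, 127, 182 and 140 CPM at 4 PM. Thus every TAN library lay below the AL range at 8 AM, where 3.07% of all genes had no overlap, and above it at 4 PM, where 30.6% had none. The log2 fold change was -1.30 (SE 0.35, adjusted p = 0.336) at 8 AM, -0.98 (SE 0.35, adjusted p = 0.530) at 12 PM, 1.02 (SE 0.35, adjusted p = 0.0418) at 4 PM, 0.85 (SE 0.35, adjusted p = 0.0958) at 8 PM and 0.98 (SE 0.35, adjusted p = 0.160) at 12 AM. The 4 PM value was the only called one of the 6. Mt1 was the 1 member of 9 whose TAN effect differed between the times (adjusted p = 0.00612), where 8.98% of all genes did, and its cosine differed between the diets (adjusted p = 6.33e-04). In TAN mice the cosine peaked at hour 20.1 (SE 0.56) with an amplitude of 0.97 (SE 0.14; adjusted p = 1.29e-04), a 3.85-fold difference between peak and trough. In AL mice it peaked at hour 9.84 (SE 1.64) with an amplitude of 0.33 (SE 0.14) and was not called (adjusted p = 0.497).

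Mt1 had the strongest relation to the adipocyte markers among the members, with r = 0.85 between their deviations from the group means and r = -0.67 with the lymphocyte marker mean. The AL 8 AM libraries with the highest Mt1, replicates 1 and 4, had adipocyte marker sums of 24730 and 34797 CPM, against 10024 and 8691 CPM in replicates 2 and 3. With the adipocyte marker covariate the 4 PM difference of Mt1 was 0.30 and not called (adjusted p = 0.522). The difference at 8 AM was then -1.01 (adjusted p = 0.00699) and that at 8 PM 0.76 (adjusted p = 0.00474). Of all 19977 genes, that fit called 67 at 4 PM, 42 at 8 AM and 4860 at 8 PM. The lymphocyte covariate left 0 of all genes called at 4 PM. The change of the TAN effect between times was called with the adipocyte (adjusted p = 2.74e-04) and with the lymphocyte covariate (adjusted p = 0.0498), as was the difference between the cosines (adjusted p = 2.42e-05 and 0.00646). Of all genes, 2468 and 1364 were called in the first of these tests and 5022 and 3424 in the second. The 4 PM call was lost with the lymphocyte covariate (0.34, adjusted p = 0.620), without the filter on low counts (0.95, adjusted p = 0.0743) and without AL 4 PM replicate 2 (adjusted p = 0.0694), 3 (0.127) or 4 (0.0829), or TAN 4 PM replicate 1 (0.0947), 3 (0.0962) or 4 (0.0607). The difference between the cosines held in all 48 such fits (adjusted p 7.53e-05 to 0.00213).

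**Figure D4:**
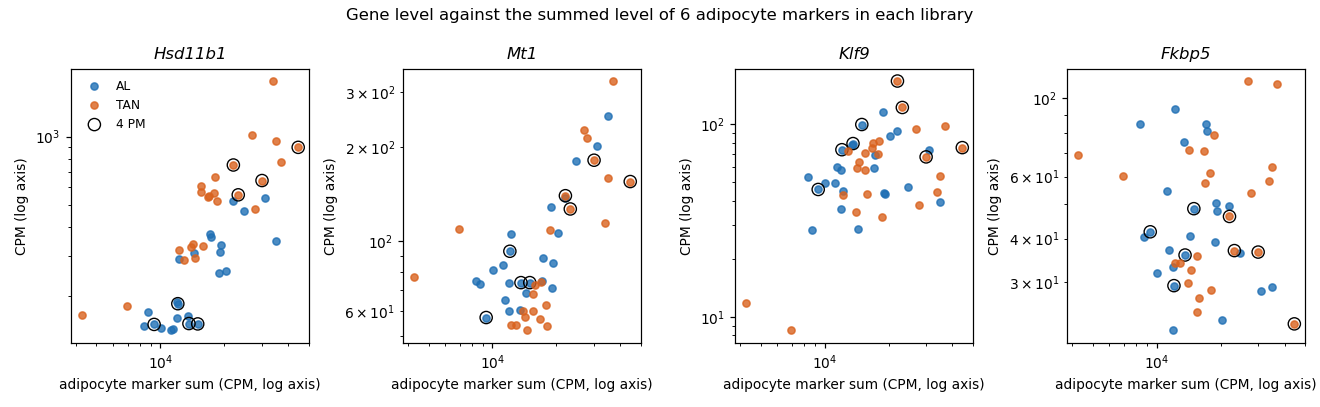
CPM of Hsd11b1, Mt1, Klf9 and Fkbp5 (y, log axis) against the summed CPM of 6 adipocyte markers (x, log axis) in the 48 libraries; the 4 PM libraries are ringed. Hsd11b1 and Mt1 are higher where the marker sum is higher, and Fkbp5 shows no such relation (r = -0.0018 within groups).

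Mt2, the neighbour of Mt1 on chromosome 8, had 51 counts over all 48 libraries, 0 to 13 per library, and 0 in 37 of them, where Mt1 had 869 to 5763 counts per library. Its highest level was 0.558 CPM, in AL at 12 PM. An antisense gene, Gm45774 (120 counts), overlaps 749 of the 905 bases of its span (chr8:94172664-94173568, plus strand), which leaves 156 bases outside it, and how reads on both were assigned is not stated. Mt2 did not pass the filter on low counts, and no difference between the diets was tested for it.

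The transcription factors Zbtb16 and Klf9 passed no test of the edgeR fit. However, limma voom called both lower in TAN mice at 8 PM (Klf9 by -1.27, adjusted p = 0.0420, and Zbtb16 by -2.81, adjusted p = 0.0249). The fits with either marker covariate did so as well. Of all 19977 genes, 3713 were called at 8 PM with limma voom, 3843 with the lymphocyte and 4860 with the adipocyte covariate. The median log2 fold change of all genes at 8 PM was -0.45, -0.18 and -0.31 in these fits. It was -0.096 in the edgeR fit without a covariate. Zbtb16 (PLZF), a zinc finger repressor and a target of the receptor, ranged from 3.76 to 52.9 CPM in AL mice and from 0.722 to 55.2 CPM in TAN mice over 24 libraries each. At 4 AM the TAN libraries were at 55.2, 44.8, 47.5 and 37.2 CPM and the AL libraries at 17.4, 16.4, 52.9 and 3.76 CPM, with a log2 fold change of 1.03 (SE 0.77). The 95% interval of this difference was -0.54 to 2.60, and the groups overlapped. Klf9, a Krüppel-like factor linked to the clock and to adipocyte differentiation, ranged from 28.2 to 115 CPM in AL mice and from 8.50 to 167 CPM in TAN mice. At 8 PM its TAN libraries were at 8.50, 11.8, 37.8 and 98.1 CPM, the lowest being replicates 1 and 2, and its AL libraries at 52.8, 45.04, 49.1 and 92.1 CPM. The log2 fold change of -0.62 (SE 0.45) was -1.62 and called without TAN replicate 4 (adjusted p = 0.00883), and 0.18 without replicates 1 and 2 (adjusted p = 0.803). The direction at 8 PM thus rested on which of these TAN libraries were used. For Zbtb16 the 8 PM difference of -1.31 (SE 0.78) was likewise -2.91 and called without TAN replicate 4 (adjusted p = 0.0176), and -0.43 without replicates 1 and 2 (adjusted p = 0.762).

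Lcn2, lipocalin 2, an iron-siderophore-binding protein of the acute phase and of neutrophils, was near the limit of the filter at 0 to 8.42 CPM in AL and 0 to 4.28 CPM in TAN libraries. At 4 PM the TAN libraries were at 0.671, 1.24, 1.67 and 1.51 CPM and the AL libraries at 2.84, 3.59, 2.58 and 3.66 CPM. The groups did not overlap (all genes, 30.6%), with a log2 fold change of -1.31 (SE 1.03, adjusted p = 0.393). In a fit of the 4 PM libraries alone it was -1.37 and called (adjusted p = 0.0490), as were 4408 of 16196 genes. Neutrophil markers summed to 1.13 to 116 CPM in AL and 2.61 to 67.5 CPM in TAN libraries, and their part in the Lcn2 values was not tested.

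Members were also compared between libraries of the same diet and time, over deviations of log2 CPM from the 12 group means in 48 libraries. Of 36 pairs of members, 8 had a Pearson r that passed a permutation test within groups (100000 resamples, two-sided, adjusted over the 36 pairs), and all 8 were positive. The highest was that of Zbtb16 and Klf9 (r = 0.86, p = 1e-05, the smallest p these resamples can give, adjusted p = 3.6e-04; Spearman's rho = 0.88, p = 1e-05, adjusted p = 3.6e-04), and r was 0.81 without the 2 libraries farthest from the median of Zbtb16. It was followed by Hsd11b1 and Mt1 (r = 0.74, permutation p = 6e-05, adjusted p = 0.00108; rho = 0.69, p = 1.2e-04, adjusted p = 0.00216; r = 0.70 without the 2 farthest libraries). Nr3c1 and Klf9 had r = 0.73 (permutation p = 9e-05, adjusted p = 0.00108; rho = 0.60, p = 7.3e-04, adjusted p = 0.00657), which became 0.62 without the 2 farthest libraries. The other 5 called pairs, Nr3c1 with Hsd11b1, Zbtb16 and Mt1, and Mt1 with Klf9 and Zbtb16, had r of 0.53 to 0.63, and of 0.35 to 0.52 without the 2 farthest libraries. By Spearman's rho, Mt1 with Klf9 (rho = 0.47, permutation p = 0.0112, adjusted p = 0.0506) and Mt1 with Zbtb16 (rho = 0.35, permutation p = 0.0518, adjusted p = 0.170) did not pass, and the r of Mt1 with Zbtb16 was 0.35 without the 2 farthest libraries. With the lymphocyte marker mean regressed out 2 pairs were called (Zbtb16 with Klf9 and Hsd11b1 with Mt1), and with the adipocyte marker mean regressed out 1 was (Zbtb16 with Klf9). Fkbp5, Tsc22d3, Sgk1 and Lcn2 were in no called pair.

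**Figure D5:**
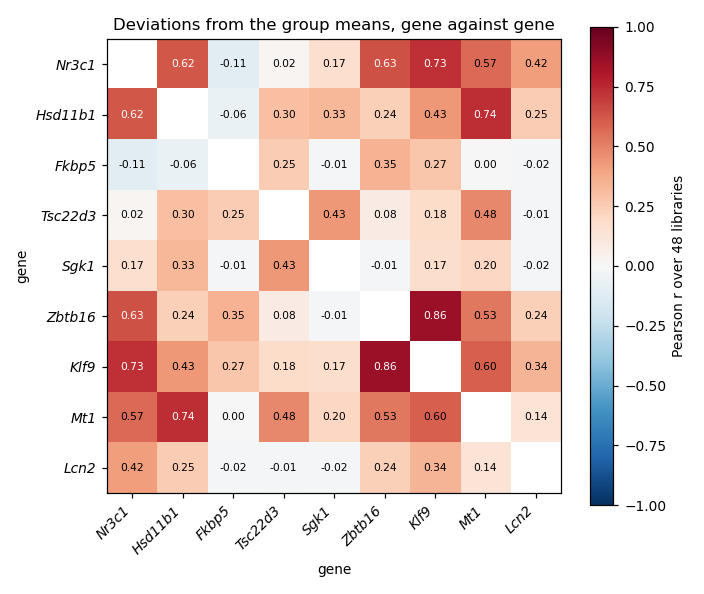
Pearson r between 9 genes (rows and columns) over deviations of log2 CPM from the diet and time means in 48 libraries; red is positive and blue negative. Nr3c1, Hsd11b1, Zbtb16, Klf9 and Mt1 share the 8 called pairs (0.53 to 0.86), and Fkbp5, Tsc22d3, Sgk1 and Lcn2 are in none.

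The wider pathway was described by lists of named genes. Among 8 genes of the receptor machinery, Ptges3 (the co-chaperone p23) was higher in TAN mice at 8 PM by 0.67 on the log2 scale (SE 0.20, adjusted p = 0.0250; all genes, 11.7%), and Fkbp4, the FKBP that opposes Fkbp5 on the receptor, was higher over the mean of the 6 times by 0.30 (SE 0.08, adjusted p = 0.0170; all genes, 5.42%). A 24-h cosine was called in AL mice for 1 of the 8, Fkbp4 (adjusted p = 0.0162; all genes, 0.0801%), and in TAN mice for 3, the chaperone Hsp90aa1, Ptges3 and the co-chaperone Stip1 (all genes, 19.8%). Ptges3 was the 1 gene of the list whose cosine differed between the diets (all genes, 20.2%) and whose TAN effect differed between times (all genes, 8.98%). Among 19 other target genes, 3 were higher in TAN mice at 4 PM, a share near the 15.3% of all genes called at that time: the glutamine synthetase Glul by 1.29 (SE 0.41, adjusted p = 0.0319), the transcription factor Klf15 by 1.26 (SE 0.42, adjusted p = 0.0385) and the sulfotransferase Sult1a1 by 1.15 (SE 0.38, adjusted p = 0.0356). At 8 PM 2 of the 19 were lower, near the 11.7% of all genes called there: the lipoprotein lipase inhibitor Angptl4 by -2.03 (SE 0.42, adjusted p = 0.00341) and the receptor tyrosine kinase Mertk by -0.84 (SE 0.27, adjusted p = 0.0395). A 24-h cosine was called for 1 of the 19 in AL mice (Cdkn1a; all genes, 0.0801%) and for 6 in TAN mice (all genes, 19.8%).

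Of 6 zinc handling genes, 1 was called at a single time, the zinc importer Slc39a10, lower in TAN mice at 8 PM (-0.72, SE 0.18, adjusted p = 0.0121, all genes, 11.7%). A 24-h cosine was called for 0 of the 6 in AL mice and 2 in TAN mice (all genes, 19.8%). It differed between the diets for 2 (all genes, 20.2%). Of 9 acute phase genes, Orm1 (2.10, SE 0.57, adjusted p = 0.0179) and Serpina3n (1.005, SE 0.34, adjusted p = 0.0394) were higher at 4 PM (all genes, 15.3%), and Itih4 (-3.11, SE 0.98, adjusted p = 0.0351) and the ferroxidase Cp (-1.44, SE 0.31, adjusted p = 0.00448) were lower at 8 PM (all genes, 11.7%). The adipocyte and lymphocyte marker sums did not overlap between the diets at 4 PM. At 8 PM TAN replicates 1 and 2 stood apart in the adipocyte marker sum, and TAN replicate 4 in the lymphocyte marker sum. The part of these markers in the values of these lists was not tested. Of 5 genes of hormone access, H6pd, which supplies the cofactor of Hsd11b1, differed over the mean of the day by 0.06 (SE 0.14, adjusted p = 0.853), and Hsd11b2, which inactivates the hormone, by -0.38 (SE 0.40, adjusted p = 0.626). The steroid reductase Srd5a1 differed by -0.24 (SE 0.27), the efflux transporter Abcb1a by -0.28 (SE 0.14) and the mineralocorticoid receptor Nr3c2 by -0.31 (SE 0.18), with adjusted p of 0.662, 0.235 and 0.330. The median log2 fold change of those 5 genes was -0.28 over the mean of the day, that of all genes -0.08, and that of Hsd11b1 1.09.

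Over the 12 group means of log2 CPM, the genes with the most similar course to each member were named by Pearson's r alone, without a test. For Fkbp5 they were the cell cycle kinase Wee1 (0.92), BB123696 (0.90) and Slc46a3 (0.89), and for Tsc22d3 they were Cept1 (0.90), Tfam (0.90) and Sgk3 (0.89). For Hsd11b1 they were Napa (0.98), Oscp1 (0.98) and Pdhb, a subunit of pyruvate dehydrogenase (0.97), and for Mt1 Pigp (0.93), Nagk (0.93) and Polr3gl (0.93). The course of Nr3c1 was closest to those of Ermp1 (0.98), Heph (0.97) and Wdpcp (0.96), and that of Sgk1 to those of Gm2999 (0.89), Eif5a2 (0.89) and Gm10095 (0.89). The closest to Zbtb16 were Trim68 (0.92), Zfp667 (0.90) and Tmem231 (0.89), to Klf9 Myom3 (0.97), Ppp4r4 (0.96) and Sulf2 (0.96), and to Lcn2 Ackr1 (0.94), the macrophage marker Adgre1 (0.94) and Eda2r (0.92). All 12 points share libraries and scaling between the genes compared.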

How the data were processed

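Poly-A RNA of sWAT was sequenced as paired-end reads, and the authors deposited raw counts per gene for each of the 48 libraries, without normalization, and mean FPKM values per diet and time. The submitters' processing notes name TopHat 1.3.3, DESeq2 1.20.0, edgeR and limma and the builds mm9, mm10 and GRCm38; the counting tool is not given in the sources used here. Members of the gene set and all gene lists were chosen with earlier results of these data known. All 10 members are named, as are the 3 genes most similar to each over the group means and, by rule, at most the 4 genes of each wider list with the largest called difference at a time point. The other genes named from those lists (Mertk, Cdkn1a, Fkbp4, Hsp90aa1, Stip1 and the hormone access genes) were chosen after their values were seen. Genes were kept by filterByExpr (minimum count 10), scaled with TMM, and fitted in edgeR 4.0.16 (R 4.3.3) by robust quasi-likelihood over 12 diet and time groups. Contrasts were TAN against AL at each time and over the mean, variation over time, cosine and sine terms of a 24-h period per diet, and interactions. Fits were tested on simulated data. Replicate numbers were not used for pairing. Alternatives were DESeq2 1.42.0, limma voom (limma 3.58.1), RLE factors, other filters, unadjusted p, a fold limit, the replicate block, covariates, and libraries left out. The adipocyte covariate and leaving out TAN 8 PM libraries 1 and 2 were chosen after seeing the data. Counting error is relatively largest where counts are few, as for Lcn2; Mt2 was below the filter and not tested.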

Additional observations from a re-analysis of the deposited data

Results flagged for a closer look

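Of 108 groups of 4 libraries examined for the 9 tested genes, 6 held a library far from the other 3 in CPM (a gap above Dixon's critical value for 4), where chance alone gives about 5%. For Hsd11b1, AL 4 PM replicate 1 was at 185 CPM against 150 to 152 in the others (gap over range 0.962), and TAN 4 AM replicate 2 at 338 CPM against 543 to 565 (0.901). For Zbtb16, AL 4 PM replicate 2 was at 39.1 CPM against 13.1 to 16.2 (0.879). For Lcn2, TAN 8 AM replicate 3 was at 3.60 CPM against 0.169 to 0.602 (0.873). For Mt1, AL 4 AM replicate 3 was at 107 CPM against 65.0 to 70.9 (0.860); this library also held 5798 CPM of skeletal muscle markers, whose median over AL libraries was 19.5. For Klf9, AL 8 PM replicate 4 was at 92.1 CPM against 45.04 to 52.8 (0.836).

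The diets differed in the 24-h cosine of Mt1 (adjusted p = 6.33e-04) and of Tsc22d3 (adjusted p = 0.0128, edgeR's quasi-likelihood test). These were 2 of 9 members, near the 20.2% of all genes. With the lymphocyte marker covariate the difference for Tsc22d3 was not called. The TAN effect on Mt1 differed between the times of day (adjusted p = 0.00612, same test). This held for 1 of 9 members and for 8.98% of all genes. For Mt1 the TAN values moved from below the AL range at 8 AM to above it at 4 PM, and for Tsc22d3 the amplitude was 0.9995 (SE 0.11) in TAN and 0.42 (SE 0.10) in AL mice.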

How the results depend on the processing

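The 3 calls of TAN against AL became 5 with DESeq2, 5 with limma voom, 7 with the adipocyte marker covariate and 15 at an unadjusted p, and ranged from 2 to 6 when 1 library was left out (6 without TAN 8 PM replicate 4, which added Hsd11b1 at 12 AM and Klf9 and Zbtb16 at 8 PM). Variation over the times in AL mice (1 member) became 3 at an unadjusted p (1 to 1 with 1 library left out), and in TAN mice (6 members) ranged from 4 to 7. The 24-h cosine in AL mice (1 member) became 2 with DESeq2, 2 with the adipocyte marker covariate and 2 at an unadjusted p (1 to 2), and in TAN mice 4 members ranged from 3 to 4. The difference between the cosines (2 members) ranged from 2 to 2. Members whose TAN effect differed between times (1) became 2 with RLE factors, limma voom, at least 10 counts in every library, the lymphocyte or the adipocyte marker covariate and without TAN 8 PM libraries 1 and 2, 3 with DESeq2 and 4 at an unadjusted p (1 to 4, with Hsd11b1, Klf9 and Nr3c1 added without TAN 8 PM replicate 4, and Hsd11b1 and Tsc22d3 without AL 8 AM replicate 2). Members changed over the mean of the day (1) became 2 with the lymphocyte and adipocyte covariates and at an unadjusted p (1 to 1). Over all genes 1082 became 937 and 1543 with those covariates. Pairs of correlated members (8) became 2 with the lymphocyte marker mean and 1 with the adipocyte marker mean regressed out (6 to 11). Calls over all genes moved too. At 8 PM 2333 of 19977 genes were called, and 3197 with DESeq2, 3713 with limma voom and 4860 with the adipocyte covariate. At 4 PM 3057 became 4345, 3558 and 67. The AL cosine (16 genes) became 121 with DESeq2 and 110 with the adipocyte covariate. The interaction (1793 genes) became 2116 with RLE factors, 4004 with DESeq2 and 4439 with limma voom. It became 1364 with the lymphocyte and 2468 with the adipocyte covariate. The cause of these changes was not tested. With the replicate block the counts were 3 for TAN against AL, 1 and 6 for time and 1 and 4 for the cosine. They were 2 for the difference between the cosines, 1 for the interaction and 1 for the mean, and the block changed no call. Libraries sharing a replicate number made 24 pairs, whose r ran from -0.586 to 0.844 (median -0.0127). In 10 of these pairs r exceeded 0.1. Without a reference from differently numbered libraries, these values cannot tell whether the numbers paired the libraries. Of 3701 single fold changes under the alternatives, 3617 either kept a call and its sign or stayed uncalled within 1 SE, whatever their sign. Another 39 stayed uncalled but moved further, 27 gained and 18 lost a call, and none called changed sign. Mt2 was not tested, Lcn2 rests on few counts, and 4 libraries per group leave wide intervals for Zbtb16.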
